A study of Mus musculus with 4 samples.

Results

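The genes of the cytoplasmic ribosomal proteins were examined in adult mouse brain after ethanol injections during the first week of life, the equivalent of the third trimester of human pregnancy, to ask which differences in their expression were present in adult males. A probe set was taken as a member where its annotation named 1 gene only and that gene's symbol was one of a ribosomal protein of the large subunit (Rpl genes, with Rplp0, Rplp1 and Rplp2) or of the small subunit (Rps genes, with Rpsa). Ribosomal S6 kinases, pseudogene symbols and mitochondrial ribosomal proteins were not members. This rule, which used no measured value, found 217 probe sets of the 35556 on the array, or of the 21789 that named 1 gene. Some probe sets of a gene had identical values on all arrays and were counted once, which left 205 distinct profiles of 61 genes. Of these, 127 profiles of 38 genes belonged to the large subunit and 78 profiles of 23 genes to the small subunit.

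C57BL/6J pups of the ethanol group were injected under the skin on postnatal days 4 and 7, each time with 2 doses of 2.5 g/kg ethanol in saline given at an interval of 2 hours. Saline alone was given to control pups, which came from the same litters as the exposed ones. The 2 ethanol-exposed pools (ethanol 2 and ethanol 4) and 2 control pools (control 1 and control 3) were hybridized to 4 Affymetrix Mouse Gene arrays, and each pool held whole-brain RNA of 3 adult males from different litters. Weaning was on day 25 and tissue collection on day 60 by the labels, whereas the methods give a later collection and an earlier weaning. For 2 pools the label fields disagree, since a further treatment field calls control 1 ethanol and ethanol 4 control; groups here follow title and source name. Values are log2 signals, and every difference is ethanol minus control, so that a negative value means a lower signal in ethanol-exposed brains.

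Each ribosome joins a large subunit, which forms peptide bonds, to a small subunit, which reads the mRNA. Most of their proteins are needed in equal numbers. The mRNAs of nearly all ribosomal proteins begin with a run of C and T bases, the terminal oligopyrimidine or TOP motif. Through this motif, the mTOR pathway and the RNA-binding protein Larp1 set the translation of these mRNAs together. In neurons, ribosomes also translate in dendrites and axons. Processed pseudogene copies of ribosomal protein genes are very common in the mouse genome, so several probe sets that the annotation assigns to 1 gene may read the same transcript or a copy of it. Which of them do was not tested.

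Start-site sequence was read from the RefSeq promoter table (build GRCm38.p6), which held 58 windows for 49 of the 61 genes. The windows of 5 genes are shown to let the start-site features of members with low, middle and high differences be compared. Each gives 50 bases before the annotated start and 20 bases from it. Capitals mark the unbroken run of C and T that holds the start base (Rps9, Rps18, Rps6) or the motif TCTCGCGA (Rps28, Rpl26). The Rps6 window also holds TCTCGCGA on the opposite strand, near its left end, where it is left in small letters.
Rps9, chr7:3703991-3704060, plus strand: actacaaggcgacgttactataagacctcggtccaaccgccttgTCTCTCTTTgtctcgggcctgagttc
Rps18, chr17:33955646-33955715, minus strand: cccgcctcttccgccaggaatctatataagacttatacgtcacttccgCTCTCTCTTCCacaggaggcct
Rps6, chr4:86857348-86857417, minus strand: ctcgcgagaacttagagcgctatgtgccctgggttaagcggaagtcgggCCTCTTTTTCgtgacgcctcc
Rps28, chr17:33824543-33824612, minus strand: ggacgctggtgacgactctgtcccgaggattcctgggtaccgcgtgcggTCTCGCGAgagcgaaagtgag
Rpl26, chr11:68901516-68901585, plus strand: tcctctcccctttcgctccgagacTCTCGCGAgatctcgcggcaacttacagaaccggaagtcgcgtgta

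The run spanned 9 bases in Rps9, 11 in Rps18 and 10 in Rps6. A run of 5 or more C or T that holds the annotated start was present in 14 of the 58 member windows (24.1%), against 10.1% of all 32851 windows in the table. Searched on both strands of the full windows (250 bases before to 50 after the start), TCTCGCGA was found in 19.0% of member windows and 1.0% of all windows, and CCGGAAG, which holds the core bound by ETS factors, in 34.5% and 8.9%. The GC box CCGCCC was found in 56.9% and 35.7%, AAGATGG, a YY1 motif that can share its AAG with CCGGAAG, in 8.6% and 6.3%, and TATAAA in 10.3% and 13.6%. A match describes letters in a window and does not show that a factor binds there.

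Before the members are compared, 2 properties of the arrays bear on every value. The deposited arrays differed in their medians, with 6.33 and 6.38 on ethanol 2 and ethanol 4, against 6.61 and 6.51 on control 1 and control 3, and the median difference over all probe sets was -0.15. Log2 differences are therefore given as deposited, and the main ones again after a further quantile normalization, which brought that median to -0.0042. The summed linear signal of 4 pituitary markers was 224.2 and 7158 on the ethanol arrays, against 6625 and 6488 on the control arrays, so that ethanol 2 stood apart in the markers Gh, Prl and Cga, while the fourth, Pomc, was called lower over both ethanol arrays. The labelled tissue was borne out by its markers: the neuron list, none of whose 6 markers was called, summed to 27240 and 27770 on the ethanol arrays, against 29250 and 28090 on the control arrays, and 2 liver markers summed to only 120.8 and 118.5, against 120.7 and 119.9.

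As deposited, ribosomal protein probe sets were lower in ethanol-exposed brains, by about as much as the array as a whole, and this direction turned where each array was centred on its own median (a median of 0.0475 for the members). Relative to all probe sets the members were at -0.02 on both of these scales. The 205 profiles had a median difference of -0.16, against -0.15 over all probe sets, and 188 (91.7%) lay below 0, where 80.2% of all probe sets did. With the limits of the study's methods, 1.2-fold and an unadjusted p of 0.05, 46 profiles (22.4%) were called lower by limma, against 17.9% of all probe sets called lower. With 1 probe set a gene, 11 of 61 were called lower (18.03%), about the share of all probe sets. At a 1.5-fold limit, 3 profiles were called lower, 1 of Rps9 and 2 of Rps29, against 3.63% of all probe sets. The median-centred arrays gave 6 profiles called lower and 4 higher at 1.2-fold, against 3.91% and 9.09% of all probe sets. As deposited none was called higher, against 2.23% of all probe sets, and 0 profiles were higher at an unadjusted p of 0.05 alone.

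After quantile normalization the members remained lower by a smaller amount, while the array as a whole was centred on 0. Their median difference was -0.09 against -0.0042 over all probe sets, and 161 profiles (78.5%) lay below 0 against 51.0% of all probe sets. Of the profiles, 16 were called lower, against 5.87% of all probe sets, and all 16 were among the 46 called as deposited. With the 1.5-fold limit 1 profile, of Rps9, was still called lower, against 1.74% of all probe sets. A single profile, that of Rpl26, was called higher, where 5.71% of all probe sets were.

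No member passed an adjusted p of 0.05 with limma and Benjamini-Hochberg adjustment over all 35556 probe sets, and the smallest was 0.133, for Rps9; 0.00281% of all probe sets passed as deposited and 0.00562% after quantile normalization. At an unadjusted p of 0.05, 55 profiles were lower as deposited, where 22.2% of all probe sets passed in either direction, and 23 were lower and 1 was higher after quantile normalization, against 13.6%. Adjusted by the same method, neither limma with an intensity trend nor the methods' own test of each probe set called a member. With groups taken from the treatment field instead, the members had a median difference of 0.05 and 0 profiles were called lower. Of 60 named probe sets called as deposited, 42 turned direction under that grouping, among them Rps9 10549588 (0.098) and Rpl14 (0.27), while Rpl12, which was not called, kept its direction at -0.74.

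In 134 of the 205 profiles (65.4%) both ethanol arrays lay below both control arrays, against 52.7% of all probe sets, and in 3 both lay above, against 7.25%. After quantile normalization these were 104 profiles (50.7%) against 24.9% of all probe sets, and 16 profiles (7.8%) against 24.0%. The groups thus separated in the lower direction in a larger share of members than of probe sets in general on either scale.

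**Figure D1:**
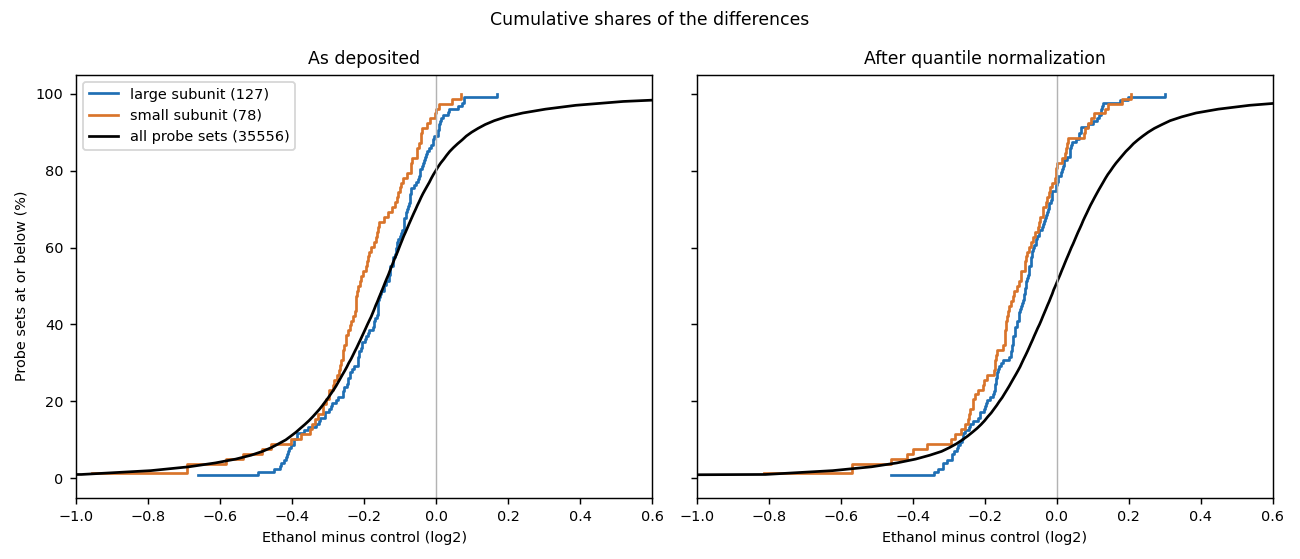
The cumulative percent of probe sets at or below each log2 difference (ethanol minus control) is drawn for the 127 large subunit profiles, the 78 small subunit profiles and all 35556 probe sets, as deposited on the left and after quantile normalization on the right. As deposited the member curves run beside the curve of all probe sets, with the small subunit further left (medians of -0.21 and -0.14), and after normalization both lie left of it between its middle and upper parts.

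The 4 arrays can also be set against each other in pairs, which shows how far the shift exceeds the spread between pools of 1 group. After quantile normalization, the median difference of the members from control 1 was -0.11 on ethanol 2 and -0.11 on ethanol 4, and that from control 3 was -0.08 on each. It was 0.02 between the ethanol arrays (ethanol 2 minus ethanol 4) and 0.04 between the control arrays (control 1 minus control 3). The median size of a single member's difference was 0.11 to 0.13 in the pairs across groups, against 0.08 between the ethanol arrays and 0.07 between the control arrays. For single probe sets the separation thus exceeded the spread within groups by a small amount.

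The members were furthest above their 4-array mean on control 1. As deposited, their median deviations were -0.08 on ethanol 2 and -0.09 on ethanol 4, against 0.13 on control 1 and 0.04 on control 3. All probe sets had deviations of -0.10 and -0.05 on the ethanol arrays, against 0.10 and 0.04 on the control arrays. After quantile normalization the members kept deviations of -0.04 and -0.05, against 0.07 and 0.03, while those of all probe sets were within 0.01 of 0.

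**Figure D2:**
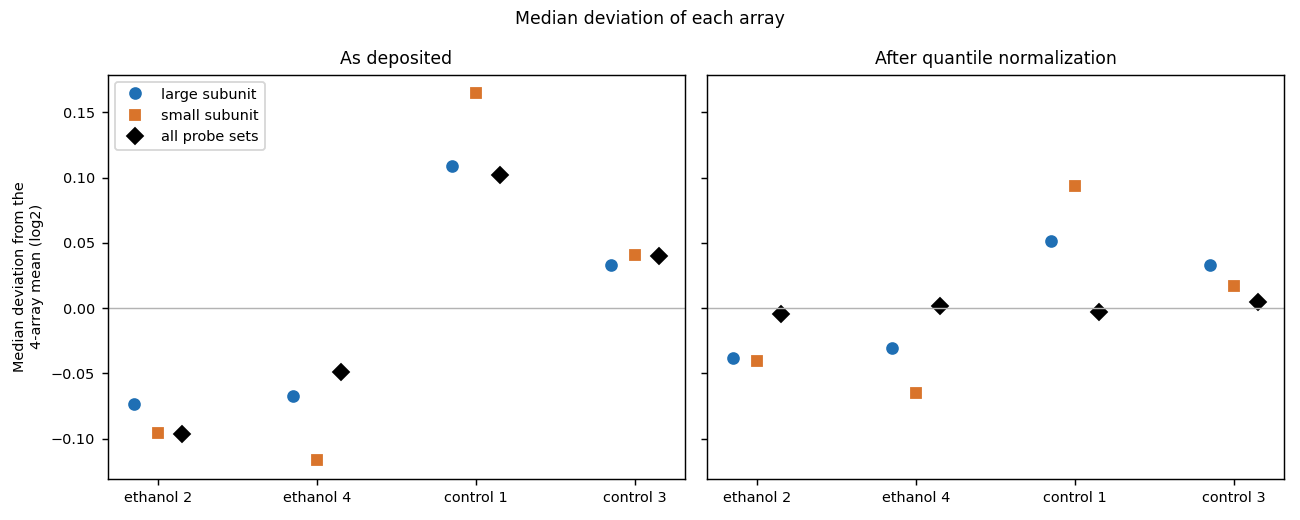
Each point is the median, over the large subunit, the small subunit or all probe sets, of the deviation from a probe set's mean over the 4 arrays (log2), by array, as deposited on the left and after quantile normalization on the right. After normalization the points of all probe sets lie near 0, the members lie below 0 on both ethanol arrays and above 0 on both control arrays, and the small subunit on control 1 is the highest at 0.09.

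Summed linear signals of other marker lists were compared in the same way. Oligodendrocyte markers summed to 10390 and 10510 on the ethanol arrays, against 12410 and 11570 on the control arrays, with 1 of 4 called lower (Cnp). Choroid plexus markers summed to 7796 and 7749 against 8625 and 8713 (1 of 4, Kl), and endothelial markers to 908 and 999.9 against 1074 and 1101 (1 of 4, Pecam1). Astrocyte sums were 5007 and 5040 against 4989 and 4928 (0 of 4), and microglial sums were 1484 and 1632 against 1606 and 1601 (0 of 5). The blood marker had 143.5 and 126.6 against 151.8 and 149.2 and was not called. These sums and calls are as deposited, where 17.9% of all probe sets were called lower. After quantile normalization Cnp was still called (-0.29), but Kl (-0.26) and Pecam1 (-0.16) were not. The list medians were then -0.09 for neuron, -0.13 for oligodendrocyte, -0.10 for choroid plexus and -0.04 for endothelial markers. They were 0.09 for astrocyte and 0.08 for microglial markers. The part of these differences, and of the pituitary difference of ethanol 2, in the member values was not tested, and in whole-brain RNA fewer cells of a type and less RNA per cell cannot be told apart. Without ethanol 2, the median difference of the members was -0.17, or -0.05 relative to all probe sets.

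The small subunit had the lower median on the deposited scale. Its 78 profiles had a median difference of -0.21, with 75 below 0 and 20 called lower (25.6%), whereas the 127 profiles of the large subunit had a median of -0.14, with 113 below 0 and 26 called lower (20.5%), where 17.9% of all probe sets were. The medians of the subunits differed by 0.07 (large minus small). When each gene counted once, by the median of its profiles, large subunit genes had a median of -0.16 and small subunit genes of -0.20, a difference of 0.04.

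After quantile normalization, the subunits were closer still, at -0.09 for the large and -0.11 for the small subunit. In each, 8 profiles were called lower, which is 6.3% of the large and 10.3% of the small subunit, against 5.87% of all probe sets. By array, the median deviations of the small subunit were -0.04 on ethanol 2 and -0.07 on ethanol 4, against 0.09 on control 1 and 0.02 on control 3. Those of the large subunit were -0.04 and -0.03, against 0.05 and 0.03, so that the subunits parted on ethanol 4 and control 1 more than on the other arrays. Members of a subunit share their arrays and are not replicates, so the difference between subunits was not tested.

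Of the 61 genes, 57 had a median below 0 as deposited and 46 after quantile normalization, and 18 had at least 1 profile called lower, 9 of them in each subunit. For 38 genes more than 1 distinct profile was measured, up to 11 for Rpl23a, and in 29 of these genes every profile was below 0. Profiles of 1 gene spanned a median of 0.18 between their lowest and highest difference, with the smallest span for Rplp1 (0.0048) and the widest for Rps9 (0.70). In 4 of the 18 genes, Rps29, Rps10, Rpl14 and Rpl8, every distinct profile was called, the last pair having 1 profile each.

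**Figure D3:**
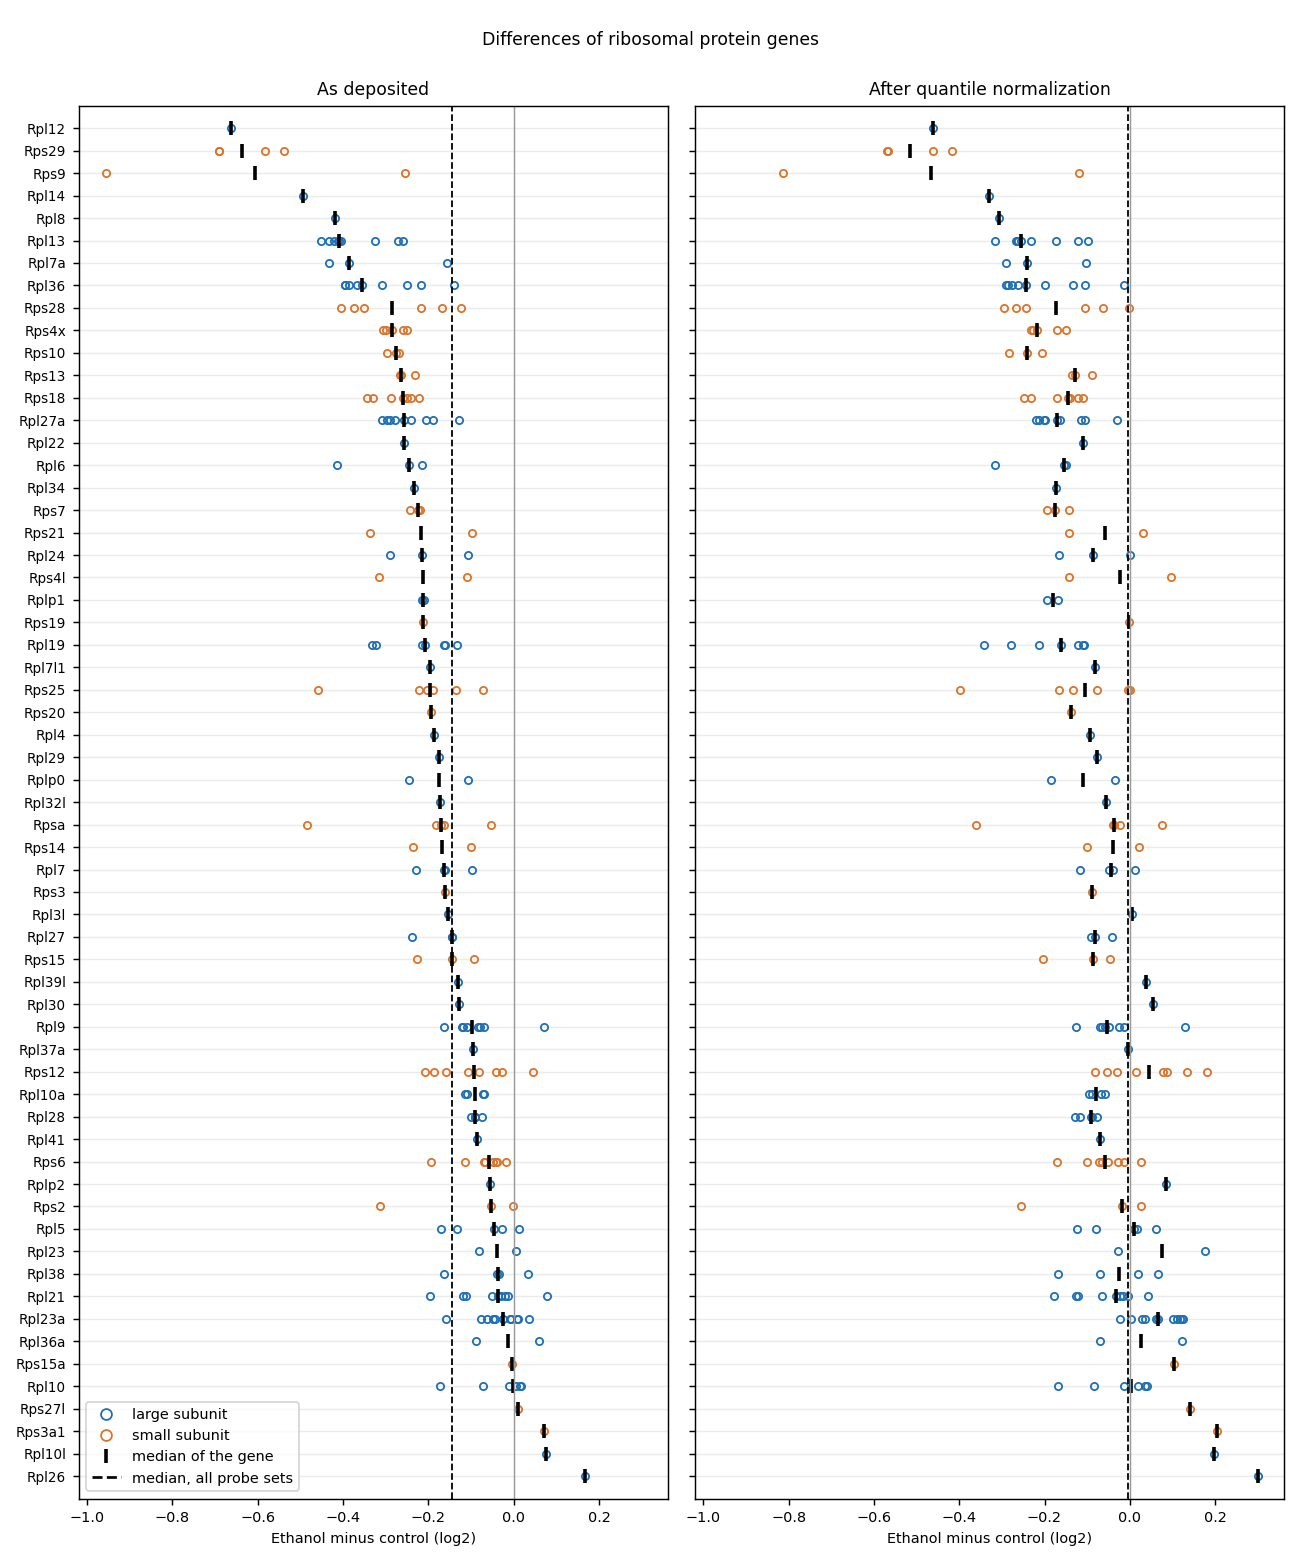
Each circle is 1 distinct profile, placed by its log2 difference (ethanol minus control) in the row of its gene, in blue for the large and orange for the small subunit, as deposited on the left and after quantile normalization on the right. Black ticks are gene medians and the dashed line is the median of all probe sets; genes run from Rpl12 (-0.66) and Rps29 (-0.64) at the top to Rpl26 (0.17) at the bottom.

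Among small subunit genes, Rps9 and Rps29 stood lowest. Rps9 encodes a protein that binds ribosomal RNA early in assembly and lies near the channel where mRNA enters. Its probe set 10549588 had signals of 7.88 and 7.73 on the ethanol arrays, against 8.79 and 8.74 on the control arrays, so the arrays of each group lay close together and far from those of the other. The difference was -0.96 ± 0.10 (SE, n = 2 pools a group), or 0.515-fold, with an adjusted p of 0.133 by limma, and it was -0.81 after quantile normalization. The other Rps9 probe set, 10569069, did not share this separation. It had 8.34 and 8.24 on the ethanol arrays, against 8.95 and 8.15 on the control arrays, so its groups overlapped, and its difference was -0.26 ± 0.28.

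Rps29 encodes a small zinc-binding protein in the head of the small subunit. Probe set 10521134 had 8.73 and 8.60 on the ethanol arrays, against 9.44 and 9.28 on the control arrays. All 4 Rps29 profiles were separated in this way and called lower on both scales, with differences of -0.69 to -0.54 as deposited and -0.57 to -0.42 after quantile normalization. Their adjusted p-values by limma were 0.155 to 0.163. The 4 profiles had very similar values on each array, and whether they read the same transcript was not tested.

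Further genes of the small subunit were called lower as deposited in part or all of their profiles. These were Rps28, Rps4x, Rps18 and Rps10 with 3 profiles each, of 6, 5, 7 and 3, and Rpsa, Rps21 and Rps2 with 1 each, of 5, 2 and 3. Rps10, which sits near the mRNA entry, had 11.67 and 11.71 on the ethanol arrays, against 11.96 and 11.98 on the control arrays, at probe set 10438564. That difference of -0.28 ± 0.08 was the same in size after quantile normalization (-0.28), where Rps10 10438564 was still called. Rps28, which lies near the mRNA exit, had 9.29 and 9.34 against 9.83 and 9.61 at its lowest probe set, 10450050, a difference of -0.40 ± 0.11 that was -0.30 after normalization. Its other 5 profiles differed by -0.37 to -0.12.

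Rpsa, also known as the laminin receptor, showed how far probe sets of 1 gene can part. At 10385034 it had 8.48 and 8.52 on the ethanol arrays, against 9.02 and 8.95 on the control arrays, a difference of -0.49 ± 0.09 (adjusted p = 0.165 by limma) that was -0.36 and still called after quantile normalization. Its other 4 profiles differed by -0.18 to -0.05, and in 3 of them the groups overlapped. The X-linked gene Rps4x was more uniform, with 5 profiles between -0.31 and -0.25 in which both ethanol arrays lay below both control arrays. None of the Rps4x profiles was called after normalization (-0.23 to -0.15). The 7 profiles of Rps18, in the subunit's head, differed by -0.34 to -0.22, and the lowest had 9.23 and 9.30 against 9.67 and 9.55. None of them was called after normalization.

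Rps6, the small subunit protein that S6 kinases phosphorylate when mTOR is active, was near the level of the controls. Its brightest probe set, 10363699, had 13.18 and 12.96 on the ethanol arrays, against 13.09 and 13.10 on the control arrays. Its 8 profiles differed by -0.19 to -0.02, the groups overlapped in each, and none was called on either scale. The start-site window of Rps6 shown above holds a run of C and T as do those of Rps9 and Rps18, whose differences were lower. Over the 14 genes with such a run the median of gene medians was -0.23 as deposited and -0.12 after normalization. Over the 35 genes without one at the annotated start it was -0.15 and -0.08. Since nearly all ribosomal protein mRNAs begin with the TOP motif, this split rests on the annotated start base. It does not part genes with the motif from genes without it, and the difference was not tested. For TCTCGCGA, present in Rps28, Rpl26 and Rps6, the median of gene medians was -0.15 in the 10 genes with it and -0.17 in the 39 without. After normalization these were -0.07 and -0.08.

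**Figure D4:**
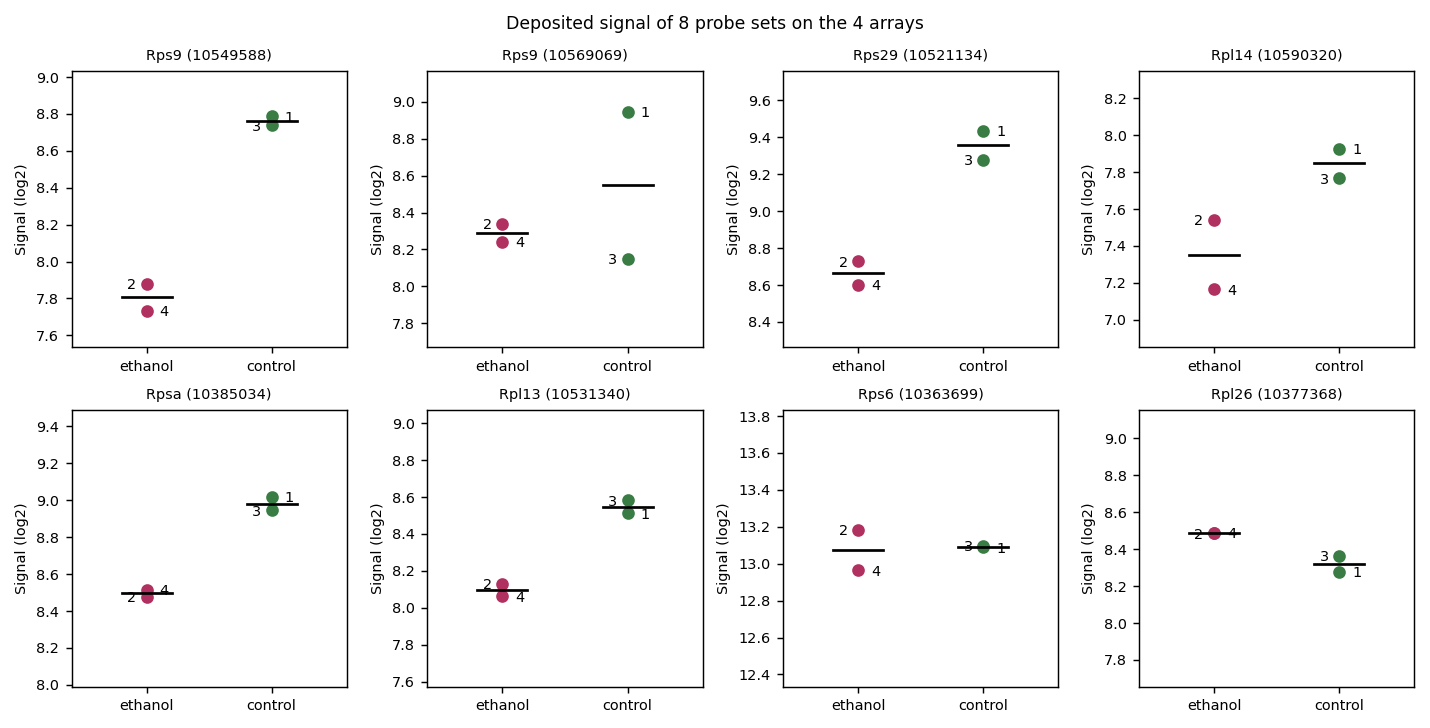
Deposited log2 signal of 8 probe sets on each array, ethanol (pools 2 and 4) on the left and control (pools 1 and 3) on the right, with bars at group means; every panel spans the same range on the log2 axis, but levels of different probe sets are not comparable. Rps9 10549588, Rps29, Rpl14, Rpsa and Rpl13 separate downwards, Rps9 10569069 and Rps6 overlap, and Rpl26 separates upwards.

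Among large subunit genes, Rpl14, Rpl8, Rpl13, Rpl7a and Rpl36 had the lowest medians with called profiles. Rpl14 had 7.54 and 7.16 on the ethanol arrays, against 7.93 and 7.77 on the control arrays, a difference of -0.49 ± 0.16. Rpl8, a protein next to the peptide-bond-forming centre, had 9.285 and 9.004 against 9.622 and 9.505, a difference of -0.42 ± 0.13. In both genes ethanol 4 was the lowest array, and neither was called after quantile normalization (-0.33 for Rpl14 and -0.31 for Rpl8). Rpl14 and Rpl8 were also not called without ethanol 4 (-0.31 and -0.28) or without control 1 (-0.41 and -0.36).

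Rpl13 had 9 distinct profiles, and in each both ethanol arrays lay below both control arrays. The lowest, 10531340, had 8.13 and 8.06 on the ethanol arrays, against 8.51 and 8.58 on the control arrays, a difference of -0.45 ± 0.09 with an adjusted p of 0.171 by limma. The 9 differences ran from -0.45 to -0.26 as deposited, with 8 called, and from -0.32 to -0.10 after quantile normalization, with 1 called. Rpl36 also had 9 profiles separated in the same way, at -0.40 to -0.14, with 6 called as deposited and 3 after normalization. Its lowest, 10378783, had 9.42 and 9.48 against 9.90 and 9.79.

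Rpl7a, Rpl6, Rpl27a, Rpl19 and Rpl24 completed the large subunit genes with called profiles. Rpl7a had 2 of 3 profiles called, and at 10501742 it had 9.72 and 9.78 on the ethanol arrays, against 10.18 and 10.09 on the control arrays, a difference of -0.39 ± 0.09 that was -0.29 after normalization. Rpl6 had 1 of 3 called, with 9.61 and 9.67 against 10.09 and 10.03 and a difference of -0.42 ± 0.09. Rpl27a, which had 4 of 9 called as deposited, had none after normalization (-0.22 to -0.03).

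Rpl19 and Rpl24 each contribute to bridges between the subunits. Rpl19 at 10556571 had 11.84 and 11.80 on the ethanol arrays, against 12.16 and 12.15 on the control arrays, a difference of -0.33 ± 0.08 that was of the same size after quantile normalization (-0.34). A second Rpl19 profile was called on both scales, and the other 5 differed by -0.21 to -0.13. Rpl24 had 1 of 3 profiles called as deposited, with 8.84 and 8.89 against 9.19 and 9.12, and none after normalization.

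Rpl12, which lies at the base of the stalk, had the lowest median of any gene but was not called. Its single profile had 5.47 and 6.33 on the ethanol arrays, against 6.26 and 6.87 on the control arrays, so that ethanol 4 exceeded control 1. The difference of -0.66 ± 0.36 was therefore within the spread of the arrays (adjusted p = 0.325 by limma), and its signal was dim. It was -0.23 without ethanol 2 and -1.09 without ethanol 4. Brighter probe sets that name Rpl12 together with Gm32899 were not members. They differed by -0.17 to -0.04 as deposited, and none was called.

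The stalk proteins, which draw elongation factors to the ribosome, gave no call. Rplp1 had differences of -0.21 at both profiles, with both ethanol arrays below both control arrays. Rplp0 had -0.24 and -0.11, and Rplp2 had 7.92 and 8.11 on the ethanol arrays, against 8.05 and 8.09 on the control arrays, a difference of -0.05 ± 0.10. All of these were between -0.19 and 0.09 after quantile normalization.

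At the other end, Rpl26 was the member with the highest difference. The protein lies beside the tunnel through which the new peptide leaves. Rpl26 had 8.49 on each ethanol array, against 8.28 and 8.36 on the control arrays, so both ethanol arrays were higher. The difference of 0.17 ± 0.09 was not called as deposited (adjusted p = 0.307 by limma), and after quantile normalization Rpl26 was called higher at 0.30 (unadjusted p = 0.0264). Probe sets that name Rpl26 together with Gm15772 were not members and lay lower as deposited. They differed by -0.26 (10511629), -0.16 (10519321) and -0.03 (10466923), and by -0.14, -0.05 and 0.10 after normalization, with none called on either scale. Which gene they read was not tested. Rps3a1 had 8.42 and 8.37 against 8.69 and 7.97, with both ethanol arrays inside the range of the controls.

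Several genes with many profiles lay near 0 as deposited. The 11 profiles of Rpl23a differed by -0.16 to 0.04, the 9 of Rpl21 by -0.20 to 0.08, the 8 of Rpl9 by -0.16 to 0.07 and the 6 of Rpl10 by -0.17 to 0.02, with 0 called in any of these genes. Rpl23a and Rpl10 thus lay above the median of all probe sets in most profiles, and after quantile normalization their medians were 0.07 and 0.0035. Rps12 had 8 profiles between -0.21 and 0.05, of which 5 had both ethanol arrays below both control arrays and 1 had both above. None of its profiles was called.

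The remaining genes had no called profile. Rps13, in the small subunit's body, had 8.31 and 8.14 on the ethanol arrays, against 8.61 and 8.38 on the control arrays, at its lowest of 3 profiles (-0.27 to -0.23), and the 3 profiles of Rps7 differed by -0.24 to -0.22. In each of these 6 the ethanol arrays lay below both control arrays, but control 3 lay closer to the ethanol arrays than control 1 did. Rps25, which certain viral mRNAs need to recruit ribosomes, had 10.79 and 10.33 against 11.08 and 10.96 at probe set 10534964. That difference of -0.46 ± 0.18 did not pass the limits (unadjusted p = 0.0554 by limma), and the other 5 Rps25 profiles differed by -0.22 to -0.07.

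Single-profile genes among these included Rpl22 (-0.26), Rpl34 (-0.23), Rps19 (-0.21), whose human counterpart is mutated in Diamond-Blackfan anaemia, Rps20 (-0.19), Rpl4 (-0.19), Rpl29 (-0.18), Rpl32l (-0.17) and Rps3 (-0.16), a protein at the mRNA entry. In all of these both ethanol arrays lay below both control arrays. After quantile normalization Rps19 was at -0.0025 and Rpl34 at -0.17. Of the genes with more profiles, Rpl27 and Rps15 were below 0 in all 3 of theirs, Rpl28 in all 5 (-0.10 to -0.07) and Rpl10a in all 4 (-0.11 to -0.07), and Rps14 had -0.24 and -0.10. Rpl5, which carries a small ribosomal RNA into the large subunit and binds Mdm2, had 5 profiles between -0.17 and 0.01, each with overlapping groups. Rpl38, Rpl36a and Rpl23 had profiles on either side of 0, and Rpl30 (-0.13), Rpl37a (-0.09), Rpl41 (-0.09) and Rps15a (-0.0030) lay above the median of all probe sets.

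Paralogs of ribosomal proteins, several of which are used in particular tissues, were measured by 7 profiles of 6 genes: Rpl3l (heart and skeletal muscle), Rpl10l and Rpl39l (testis), Rpl7l1, Rps27l and Rps4l. None was called by limma, and 0 had an unadjusted p under 0.05. Their median difference was -0.13 as deposited and 0.04 after quantile normalization, against -0.17 and -0.10 over the 198 core profiles. Rpl32l was not on the list of paralogs and was counted among the core profiles. Rps27l, a gene that p53 induces, had 9.02 and 8.90 on the ethanol arrays, against 9.05 and 8.85 on the control arrays. Rpl10l had 4.82 and 4.77 against 4.69 and 4.74, close to the dimmest probe sets, and its X-linked parent Rpl10 had profiles on either side of 0. Rpl7l1 had 9.29 and 9.28 against 9.55 and 9.41, a difference of -0.20, and the 4 profiles of Rpl7 itself, also not called, differed by -0.23 to -0.10. Rps4l differed by -0.32 and -0.11 at its 2 profiles, beside the uniform values of Rps4x.

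As deposited, from a mean log2 signal of 6 upwards, brighter members had smaller differences, and so did brighter probe sets in general. The 4 dimmest profiles, with a mean of 4 to 6, did not follow this, with a median difference of -0.11 against -0.14 over all probe sets of that range. Members with a mean log2 signal of 6 to 8 had a median difference of -0.32 (19 profiles), those from 8 to 10 of -0.22 (82), from 10 to 11 of -0.21 (48), from 11 to 12 of -0.11 (28) and from 12 upwards of -0.05 (24). The medians of all probe sets in the same ranges were -0.18, -0.15, -0.11, -0.07 and -0.06. After quantile normalization, the members had -0.14, -0.10, -0.14, -0.09 and -0.06, against 0.01, -0.03, -0.04, -0.05 and -0.03 for all probe sets. Among probe sets with a mean of 8 or more, the 182 members had a median of -0.16 against -0.12 as deposited, and -0.09 against -0.03 after normalization.

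**Figure D5:**
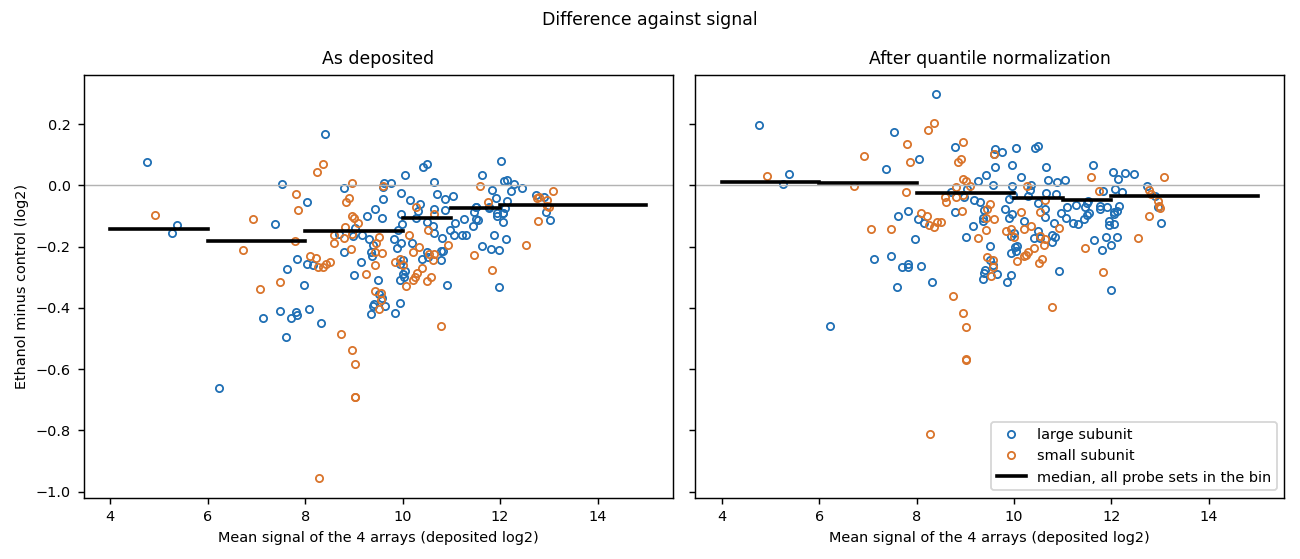
Log2 difference (ethanol minus control) of each of the 205 profiles against its mean deposited log2 signal, as deposited on the left and after quantile normalization on the right; black bars are medians of all probe sets in each signal range. Members of middle signal lie further below the bars than the brightest ones, whose median of -0.05 is beside that of all probe sets (-0.06).

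Genes that work with the ribosome were set beside the members. Of 8 profiles of fusion and ribosome-bound proteins, 2 were called lower (25.0%, against 17.9% of all probe sets) and both were of Fau, a ubiquitin-like protein made as a fusion with a ribosomal protein of the small subunit. Fau had 9.43 and 9.42 on the ethanol arrays, against 9.81 and 9.87 on the control arrays, at 10440414, a difference of -0.42 ± 0.08, and both Fau profiles were also called after quantile normalization (-0.31 and -0.27). Of 10 profiles of elongation factors 4 were called lower as deposited (40.0%, against 17.9% of all probe sets) and 1 after normalization (10.0%, against 5.87%). That call was of Eif5a probe set 10523058 (-0.54 ± 0.12, and -0.48 after normalization), whereas the other Eif5a probe set, 10387733, was at 0.05 and 0.18 and was not called. Eef2k, the kinase that inactivates the elongation factor Eef2, differed by -0.39 ± 0.10 at 10557009, which was not called after normalization (-0.20), and by -0.08 at 10557033, with overlapping groups.

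Initiation factors had 7 of 31 profiles called lower (22.6%, against 17.9% of all probe sets) and 0 higher. Eif4e, which binds the mRNA cap, had 9.22 and 8.85 on the ethanol arrays, against 9.70 and 9.50 on the control arrays, at probe set 10496485, a difference of -0.57 ± 0.16. Its other probe sets were not called and parted in sign, with -0.21 at 10496490 and 0.15 at 10599855. Eif2s2, a subunit of the factor that brings the initiator tRNA, had 7.87 and 7.93 against 8.33 and 8.41 at 10488806, a difference of -0.47 ± 0.09, and 0.13 at its other probe set, 10578683, which was not called. After quantile normalization 3 were called lower (9.7%, against 5.87%), the first probe sets of Eif4e and Eif2s2 among them, and 1 higher, and the median of the list was -0.02.

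Genes of the mTOR pathway and of TOP mRNA control had 6 of 17 profiles called lower (35.3%) and a median of -0.25, against 17.9% and -0.15 over all probe sets. Tsc1, which restrains mTOR, had 8.89 and 8.74 on the ethanol arrays, against 9.38 and 9.18 on the control arrays, a difference of -0.46 ± 0.12. After quantile normalization, 3 of the 17 were called lower (17.7%, against 5.87%), namely Tsc1 (-0.34), the cap-complex inhibitor Eif4ebp2 (-0.33) and Larp1 (-0.31), of which Eif4ebp2 and Larp1 were named after their values were seen. The second Larp1 probe set, 10376312, had overlapping groups, with -0.05 as deposited and 0.01 after normalization. Larp4, which binds poly(A) tails, had the lowest difference of the list at -0.50 ± 0.20 (10603252) and was not called. Its other profiles were also not called, at -0.42 (10426827, with overlapping groups) and -0.14 (10603254).

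Ribosome biogenesis genes had medians close to that of the array as a whole, and mitochondrial ribosomal proteins were at -0.04 relative to it on either scale. Of 37 biogenesis profiles 6 were called lower (16.2%, against 17.9% of all probe sets) and 1 higher as deposited, and 2 lower (5.4%, against 5.87%) and 5 higher (13.5%, against 5.71%) after quantile normalization, with medians of -0.14 and -0.01. Wdr12, a partner of Pes1 and Bop1 in large subunit maturation, differed by -0.49 ± 0.09 at 10355037 and Polr1a, the catalytic subunit of RNA polymerase I, by -0.47 ± 0.09, and both were called on either scale (-0.29 and -0.31 after normalization). A second Wdr12 probe set, 10550098, was at -0.10 with overlapping groups. Xpo1, which exports subunits from the nucleus, was the profile called higher as deposited (0.27 ± 0.10) and was named after its value was seen.

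Of 85 profiles of mitochondrial ribosomal proteins, 15 (17.7%) were called lower, against 17.9% of all probe sets. Their median was -0.19 as deposited and -0.05 after quantile normalization. On the normalized scale 4 were called lower (4.7%, against 5.87%) and 3 higher (3.5%, against 5.71%). Mrpl22 differed by -0.75 ± 0.25 and was not called after normalization (-0.56). Mrpl27 differed by -0.55 ± 0.09 at 10454093, called on both scales, and by -0.39 at 10380411, not called on either. The medians of the cytoplasmic members were -0.16 and -0.09, and their difference from the mitochondrial ones was not tested.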

How the data were processed

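Whole-brain RNA of 4 pools was measured on Affymetrix Mouse Gene arrays. The authors summarized probes to gene level in Partek (version 6.6 in the submitters' processing notes) by RMA with GC adjustment and quantile normalization, and deposited log2 values. Array medians nevertheless differ in the deposited table, so values were used both as deposited and after quantile normalizing the 4 arrays again.

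Genes come from the platform annotation, and all 217 member probe sets matched current symbols by Entrez ID. The annotation names no genome build. Each of 35556 probe sets was fitted with limma (version 3.58.1, R 4.3.3; 2 residual and 2.57 prior degrees of freedom) with no filter, and p-values were adjusted by Benjamini-Hochberg over all of them. Called means past 1.2-fold and an unadjusted p of 0.05, the limits of the methods. The test was checked on simulated data. Precision is limited by the number of arrays; p-values measure the spread between pools.

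The members, lists and rules were chosen with earlier results of these data known. Named genes are members called on either scale, the 8 highest and 8 lowest, the stalk genes, Rpsa, Rps6 and the paralogs with their core genes, with all their profiles, and the 2 largest differences of each further list. The remaining members are named with values only so that every gene is accounted for, and further probe sets of named list genes were added after their values were seen. Alternatives were groups taken from the treatment field, the pair of arrays with undisputed labels, median centring, probe sets with a mean log2 of at least 5, limma with a trend, the methods' ANOVA, each array left out, both replicate blocks, a 1.5-fold limit, 1 probe set a gene and core genes only. The labels say that groups shared litters without saying which pools match.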

Additional observations from a re-analysis of the deposited data

How the results depend on the processing

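Median centring, which shifted all probe sets by over 0.1, gave the members a median of 0.0475, with 6 called lower and 4 higher; quantile normalization gave -0.0909, or -0.0867 relative to all probe sets, with 0.0219 between large and small subunit and 16 called lower and 1 higher. Grouping by the treatment field gave 0.0527, 0.0415 relative to all, -0.0113 between subunits and 0 called lower, and 114 of the 170 named probe sets turned positive, 42 of them among the 60 called as deposited (log2): Eef2k 0.049, Eif4e 0.29, Eif5a 0.14, Mrpl22 0.51, Mrpl27 0.038, Polr1a 0.044, Rpl13 0.057, 0.021 and 0.044, Rpl14 0.27, Rpl19 0.0029 and 0.020, Rpl24 0.011, Rpl27a 0.13, 0.099, 0.10 and 0.094, Rpl36 0.025, 0.085, 0.11 and 0.0057, Rpl7a 0.21 and 0.015, Rpl8 0.20, Rps10 0.037, Rps18 0.023, 0.025 and 0.019, Rps21 0.046, Rps28 0.17, 0.081 and 0.15, Rps29 0.054, 0.091, 0.14 and 0.16, Rps4x 0.015, 0.053 and 0.046, Rps9 0.098, Rpsa 0.017, Tsc1 0.17. The pair with undisputed labels gave 0.0150 relative to all probe sets, and -0.0781, -0.0707 and 0.0291 (subunits) after quantile normalization. Leaving out each array in turn gave medians of -0.2209 to -0.1270, -0.0465 to 0.0133 relative to all (above 0 without ethanol 4), 0.0543 to 0.0859 between subunits, 20 to 36 called lower (21 without control 1, 27 without ethanol 2, 36 without control 3, 20 without ethanol 4) and 0 to 1 higher; the lone array is assumed to vary like the other group. The ANOVA of the methods called 28 lower and a 1.5-fold limit 3. With 1 probe set a gene, 11 of 61 were called lower (18.03%, against 17.91% of all probe sets). The excess share of the 205 profiles as deposited was thus not kept. After quantile normalization 1 probe set a gene gave 5 lower (8.197%, against 5.867%) and 1 higher (1.639%, against 5.709%). The median was then -0.0909, or -0.0867 relative to all. Gene medians put the subunits 0.0369 apart. Replicate blocks pairing ethanol 2 with control 1, or ethanol 2 with control 3, called 40 and 33 lower and 0 higher; the labels do not say which pairing holds. The cause of these shifts was not tested. For the ANOVA, the replicate blocks and the fits without 1 array, shares of all probe sets called are not given. Their counts are therefore not set against the array as a whole. The settings that join quantile normalization with 1 probe set a gene or the undisputed pair, and the gene medians, were chosen after seeing the data. A minimum signal, an intensity trend and core genes only moved no such count by over 1.5 times. With 2 pools a group and array medians that differ between groups, a shift of all members by a common amount and the scaling of the arrays cannot be told apart.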

Other observations

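Probe sets that name a ribosomal protein gene together with other genes were not members, but 239 of them were on the array, with 234 distinct profiles, and 18 ribosomal protein genes were measured only there, among them Rpl3, Rpl11, Rpl15, Rpl17, Rpl32, Rpl35a, Rps16, Rps23, Rps24 and Rps26. Their median difference was -0.13 as deposited and -0.10 after quantile normalization. As deposited 27 were called lower (11.5%, against 17.9% of all probe sets) and 0 higher (against 2.23%). After normalization 9 were called lower (3.8%, against 5.87%) and 2 higher (0.85%, against 5.71%). As deposited, the lowest named Rps13 with Snord14a (-0.47), a small nucleolar RNA gene, followed by several that named Rpl35a with Ino80 (-0.47 to -0.30). The profile of Rps13 with Snord14a was dim (5.88 and 5.63 on the ethanol arrays, against 6.42 and 6.04 on the control arrays). After normalization it was at -0.28 and not called, while Rpl35a with Ino80 at 10435455 was at -0.41 and called. The 2 called higher named Rps24 with Gm4832 (0.29 and 0.28 after normalization). Another profile that names this pair, 10446615, was not called, at -0.09 as deposited and 0.02 after normalization. These genes were named after their values were seen, and which of the named genes a shared probe set reads was not tested.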
